A study of Mus musculus with 6 samples.

Results

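Myoblast fusion and cell contact genes were followed in C2C12 cells with and without knockdown of PRDM2. The group holds 10 genes chosen by symbol for their known roles: the fusion proteins Mymk and Mymx, the cadherins Cdh15 and Cdh2, the receptors Cdon, Boc and Neo1, the junctional adhesion molecules Jam2 and Jam3, and the tetraspanin Cd9. Every probe set annotated with exactly 1 of these symbols was taken, which gave 23 of the 45037 probe sets that are not array controls. C2C12 is an established mouse myoblast line that leaves the cell cycle in suspension and can form myotubes. In the knockdown group, labelled PRDM2 KD, the cells were a stable pool carrying an shRNA against PRDM2, a PR/SET domain zinc finger protein, and in the control group, labelled GFP, a stable pool carrying an shRNA against GFP. Both pools were grown in DMEM with 20% fetal calf serum and were held for 48 hours in methylcellulose medium with the same serum, a suspension culture that the labels describe as synchronizing cells in G0. Each group had 3 arrays, called biological replicates of a pool, and nothing states that they came from separate transfections, so the p-values measure only the spread between these arrays.

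Skeletal muscle fibres form when myoblasts recognise one another, adhere and merge their membranes. Cadherins and immunoglobulin-type receptors bring the cells together, and the actin cytoskeleton pushes the membranes into contact. Mymk (myomaker), a protein that spans the membrane several times, and Mymx (myomerger, also called minion), a very small membrane protein, then carry out the fusion itself. Expression of both is largely confined to muscle cells that are differentiating. In suspension, where cells do not settle on a surface, myoblasts normally stop dividing without turning on the differentiation programme.

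Both dedicated fusion genes rose in knockdown cells, and so did 1 of the 2 probe sets of N-cadherin, whereas the other adhesion and receptor genes did not pass the test in either direction. By limma with Benjamini-Hochberg adjustment over all 45037 probe sets, 3 of the 23 probe sets were higher in the knockdown at an adjusted p under 0.05 and 0 were lower. Before adjustment, 5 were higher and 1 was lower at p under 0.05, against 2916 higher and 2331 lower of all 45037 probe sets. Over the whole array 2.43% of probe sets passed, 1.42% higher and 1.01% lower. The median log2 difference was -0.10 over the 23 probe sets and -0.01 over all probe sets. Log2 differences here are knockdown minus control of quantile normalized log2(intensity + 16), a scale that understates changes of dim probe sets, and 95% intervals come from the same fit. Intensities are the deposited values on a linear scale, and 19 of the 23 probe sets reached 16 in the mean of at least 1 group.

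**Figure D1:**
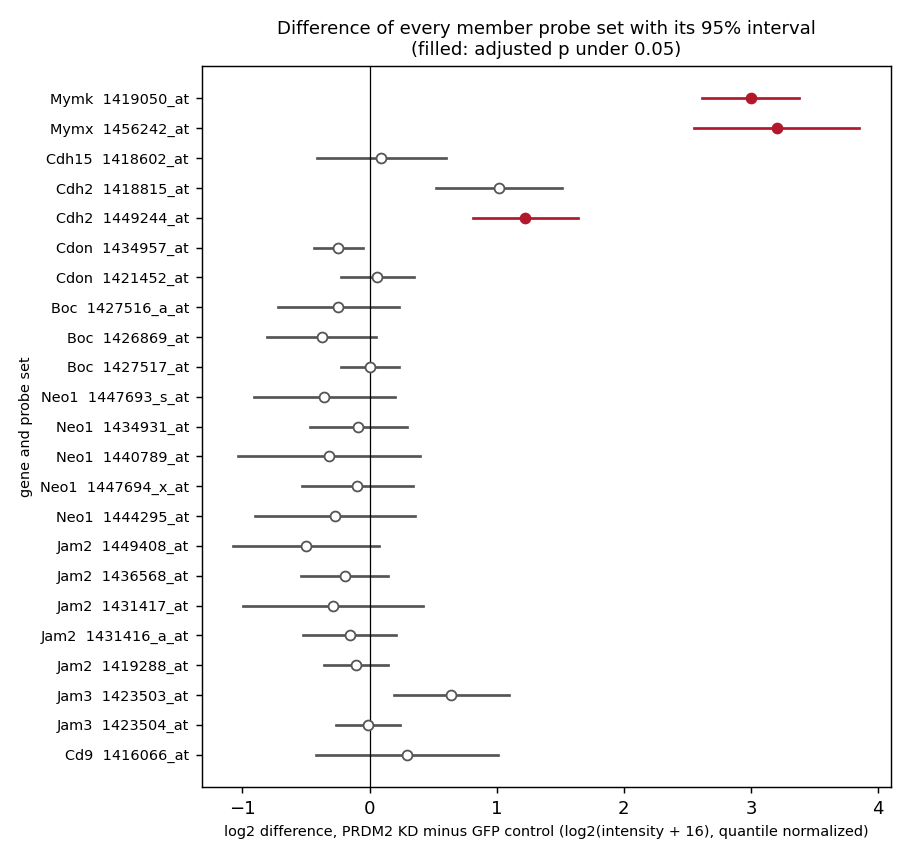
Each row is 1 of the 23 probe sets, and the x axis is the log2 difference, PRDM2 KD minus GFP control, of quantile normalized log2(intensity + 16). Lines are 95% intervals and filled points passed at an adjusted p under 0.05. Mymk at 3.00 and Mymx at 3.20 stand far to the right, Cdh2 follows at 1.02 and 1.22, and the other probe sets lie between -0.50 and 0.64.

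Mymk was measured by 1 probe set, which read 117, 168 and 165 on knockdown arrays 1 to 3, against 4.63, 5.18 and 2.44 on control arrays 1 to 3. All control arrays were near the floor of the array and all knockdown arrays were clearly above it, with no overlap. Of all probe sets, 9.6% had no overlap with the knockdown higher. The mean was 150 ± 28.3 in the knockdown and 4.08 ± 1.45 in the control (SD, n = 3 each). The log2 difference was 3.00 (SE 0.158, 95% interval 2.62 to 3.38, limma adjusted p = 0.00113), a fold of 8.00 on the scale with the offset. The plain ratio of the mean intensities was 36.7, a figure that depends on control signals too dim to be precise. The Dap spike, a poly-A transcript added to the RNA, read weaker on array 3 of each group than on the other 4 arrays. The log2 difference of Mymk was 2.87 among the 4 arrays with the stronger spike and 3.26 between the 2 with the weaker spike.

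Mymx, also with 1 probe set, read 238, 227 and 110 on knockdown arrays 1 to 3, against 5.31, 4.04 and 5.34 on the control arrays. Knockdown array 3 was the lowest of its group and still stood far above every control array. The means were 192 ± 71.0 in the knockdown and 4.90 ± 0.745 in the control (SD, n = 3 each). Its log2 difference was 3.20 (SE 0.269, 95% interval 2.55 to 3.85, limma adjusted p = 0.00366). Among the 4 arrays with the stronger spike it was 3.54, and between the 2 with the weaker spike 2.52. Under limma's fit without variance moderation the adjusted p of Mymx was 0.0811, and that of Mymk was 0.0365. For either gene the exact two-sided permutation p was 0.1, the smallest that 3 arrays against 3 allow.

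Both control groups lay under 16, so the log2 change of either fusion gene depends on the offset, and setting one against the other mainly compares knockdown signals over that offset. The difference between their log2 changes, Mymk minus Mymx, was -0.20 (SE 0.433, 95% interval -1.40 to 1.00, exact permutation p = 0.7, adjusted p = 0.875 over 5 pairs). That interval leaves room for unequal changes. On knockdown array 3 Mymk was as high as on array 2 while Mymx was at its lowest.

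**Figure D2:**
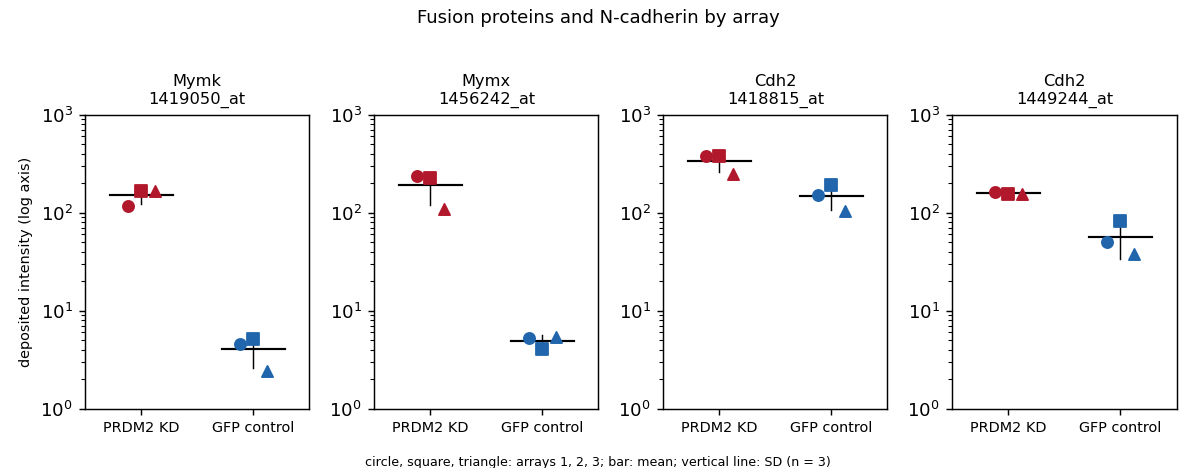
Deposited intensity on a log axis for Mymk, Mymx and both probe sets of Cdh2, with the 3 PRDM2 KD arrays on the left of each panel and the 3 GFP control arrays on the right. Horizontal bars are means and vertical lines SD (n = 3). The groups do not overlap in any of the 4 panels, and the gap is widest for Mymk, at 117 to 168 against 2.44 to 5.18, and for Mymx, at 110 to 238 against 4.04 to 5.34. The groups of 17.1% of all probe sets do not overlap, 9.6% with the knockdown higher.

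Cdh2 encodes N-cadherin, a calcium-dependent adhesion molecule of myoblasts, neurons and other mesenchymal cells. The dimmer of its 2 probe sets, 1449244_at, read 163, 157 and 155 on the knockdown arrays, against 50.3, 82.0 and 37.7 on the control arrays. Knockdown arrays were nearly level with one another, while the control arrays spread more widely below them. Its log2 difference was 1.22 (SE 0.172, 95% interval 0.81 to 1.64, limma adjusted p = 0.0215). The brighter probe set, 1418815_at, read 381, 382 and 250 on the knockdown arrays, against 153, 190 and 105 on the control arrays. Here too the groups did not overlap, which in this direction held for 9.6% of all probe sets. The log2 difference of 1.02 (SE 0.206, 95% interval 0.52 to 1.52) had a limma adjusted p of 0.0737.

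Both Cdh2 probe sets therefore read higher on every knockdown array, with the calls near the threshold. The call of 1449244_at was lost without knockdown array 1, 2 or 3 (limma adjusted p of 0.103, 0.0941 and 0.0918) and without control array 1 or 3 (0.0966 and 0.0535). Without control array 2, the highest of the controls, it was 0.00502. Conversely, 1418815_at passed when tests were adjusted over 1 probe set a gene (limma adjusted p = 0.0397), and the mean of both probe sets differed by 1.12 (limma adjusted p = 0.0151 over genes). With the spike groups as a block both probe sets passed, with limma adjusted p of 0.032 for 1449244_at and 0.017 for 1418815_at. Among the 4 arrays with the stronger spike the differences were 1.10 for 1449244_at and 1.08 for 1418815_at, and between the 2 with the weaker spike 1.48 and 0.90. Neither passed among those 4 arrays (limma adjusted p of 0.178 and 0.0963) or without variance moderation (0.163 and 0.298). Over the alternative settings, 1449244_at kept its call in 11 of 19, and 1418815_at stayed uncalled in 15 of 21.

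Cdh15 encodes M-cadherin, the cadherin most closely tied to the muscle lineage. Its probe set read 56.4, 46.6 and 77.8 on the knockdown arrays, against 55.9, 41.9 and 57.0 on the control arrays. The groups overlapped, and the log2 difference was 0.09 (95% interval -0.42 to 0.60, limma adjusted p = 0.939). That interval holds the value 0 and ends well short of the changes of the fusion genes. Set against Cdh15 within each array, Cdh2 changed by 0.93 more (SE 0.487, 95% interval -0.43 to 2.28, exact permutation p = 0.2, adjusted p = 0.5 over 5 pairs), so an unequal change of the 2 cadherins was not shown.

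The bases before the transcript start of Cdh15 are shown because this muscle cadherin did not pass the test on arrays where Myog, a factor that binds the E-box motif CANNTG, rose by 3.78 on the log2 scale. They come from RefSeq, build GRCm38.p6, plus strand, at chr8:122848124-122848373, and capitals mark each CANNTG, a motif that reads the same on both strands.
Cdh15: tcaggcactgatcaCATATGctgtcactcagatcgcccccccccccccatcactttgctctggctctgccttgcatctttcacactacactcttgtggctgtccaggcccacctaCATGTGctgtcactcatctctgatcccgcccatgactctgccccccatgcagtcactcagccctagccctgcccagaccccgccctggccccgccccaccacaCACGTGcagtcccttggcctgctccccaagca
This stretch of 250 bases holds 3 matches, none overlapping another, and 12.2% of 32851 promoter windows of the same length hold at least 3. Entries were also found for Cd9, with 3 matches, and for Cdon and Neo1, with 0 each, while 66.2% of all windows hold at least 1. The other members had no entry, among them Mymk, Mymx and Cdh2, so the matches cannot be set against a member that was called. A match is a run of letters and was not examined as a binding site, and any action of Myog on Cdh15 was not tested.

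Cdon, Boc and Neo1 are receptors with immunoglobulin and fibronectin type III repeats. Cdon and Boc act at contacts between myoblasts, where they associate with cadherins and promote differentiation, and they also serve as co-receptors for Hedgehog ligands. Neo1 (neogenin) is a receptor for netrins and repulsive guidance molecules. None of their 10 probe sets passed the test, and 8 of the 10 differences were negative. Probe sets of the same gene are not independent, and the share of negative differences over all probe sets was not counted. The sign of the Neo1 probe set 1434931_at turned under 4 alternative settings.

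The brighter Cdon probe set, 1434957_at, read 299, 255 and 275 on the knockdown arrays, against 332, 325 and 272 on the control arrays. Control array 3 fell among the knockdown values, so the groups overlapped in deposited intensity. On the normalized log2 scale that was tested they did not, at 8.07 to 8.22 in the knockdown and 8.37 to 8.40 in the control. The share of all probe sets that separate on that scale was not counted, and on deposited intensity it was 17.1%. Its log2 difference was -0.24 (SE 0.0803, 95% interval -0.44 to -0.05, limma adjusted p = 0.277), and it was the only 1 of the 23 lower at an unadjusted p under 0.05. The other Cdon probe set, 1421452_at, stayed under 16 on every array and differed by 0.06.

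The Boc probe set 1427516_a_at read 134, 102 and 176 on the knockdown arrays, against 152, 143 and 159 on the control arrays. Knockdown values lay both below and above all control values, and the log2 difference was -0.25 (95% interval -0.72 to 0.23, limma adjusted p = 0.771). Another Boc probe set, 1426869_at, had means of 30.8 ± 5.46 in the knockdown and 42.8 ± 7.16 in the control (SD, n = 3 each), a log2 difference of -0.38 (limma adjusted p = 0.519). The last Boc probe set stayed under 16 on all arrays and differed by 0.00. Taking Cdon and Boc together within each array, their changes differed by 0.00 (95% interval -0.60 to 0.60, exact permutation p = 1, also after adjustment), which leaves room for unequal changes of up to that size.

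Neo1 had 5 probe sets, all with lower means in the knockdown, by -0.36 to -0.09 on the log2 scale. The brightest, 1447693_s_at, read 392, 303 and 238 on the knockdown arrays, against 454, 299 and 379 on the control arrays. The groups overlapped, and its limma adjusted p was 0.69. The next, 1434931_at, had nearly equal means, at 298 ± 34.9 in the knockdown and 304 ± 81.9 in the control (SD, n = 3 each). Its sign differed between the spike groups, and it was -0.26 among the 4 arrays with the stronger spike and 0.26 between the 2 with the weaker spike. The change of Cdon minus that of Neo1 was 0.11 (95% interval -0.60 to 0.82, exact permutation p = 0.5, adjusted p = 0.833 over 5 pairs).

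Jam2 and Jam3 are immunoglobulin superfamily proteins of cell junctions that bind each other across cells, and in zebrafish their counterparts are required for fusion of fast muscle precursors. Jam2 had 5 probe sets, all with lower means in the knockdown, by -0.50 to -0.11 on the log2 scale, and none passed. The brightest, 1449408_at, read 91.0, 116 and 88.8 on the knockdown arrays, against 192, 98.8 and 132 on the control arrays. Knockdown array 2 lay above control array 2, and the difference of -0.50 had a 95% interval of -1.08 to 0.08 (limma adjusted p = 0.524).

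Jam3 went the other way at 1 of its 2 probe sets. That probe set, 1423503_at, read 26.1, 33.3 and 55.1 on the knockdown arrays, against 16.7, 19.5 and 16.8 on the control arrays. Every knockdown array was above every control array, with array 3 the highest, a separation found for 17.1% of all probe sets and, in this direction, for 9.6%. The log2 difference was 0.64 (SE 0.188, 95% interval 0.19 to 1.09), and the limma adjusted p of 0.211 missed the threshold, as it did under all 21 alternative settings. The other Jam3 probe set, 1423504_at, stayed under 16 on all arrays and differed by -0.01.

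Within each array, Jam3 minus Jam2 was higher in the knockdown by 1.14 (SE 0.385, 95% interval 0.07 to 2.21). The groups did not overlap in this difference, but the exact permutation p was 0.1, the smallest possible here, and 0.5 after adjustment over the 5 pairs.

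Cd9 encodes a tetraspanin, a membrane organiser that the mouse egg needs to fuse with sperm and that also takes part in muscle cell fusion. Its probe set read 1150, 912 and 1106 on the knockdown arrays, against 1060, 1233 and 443 on the control arrays. Control array 3 stood far below the other 5, which overlapped. The log2 difference was 0.29 (95% interval -0.43 to 1.01, limma adjusted p = 0.827), and it was -0.05 without control array 3. Control array 3 also had the lowest ratio of the 5' to the 3' Gapdh control probe set, 0.0992 against 0.704 to 1.14 for the remaining arrays. With that ratio as a covariate, Cd9 differed by 0.03 (limma adjusted p = 0.98). Control array 3 sets most of the spread of the ratio, so this fit nearly repeats the one without that array. Any part of RNA quality in the Cd9 values was not tested.

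**Figure D3:**
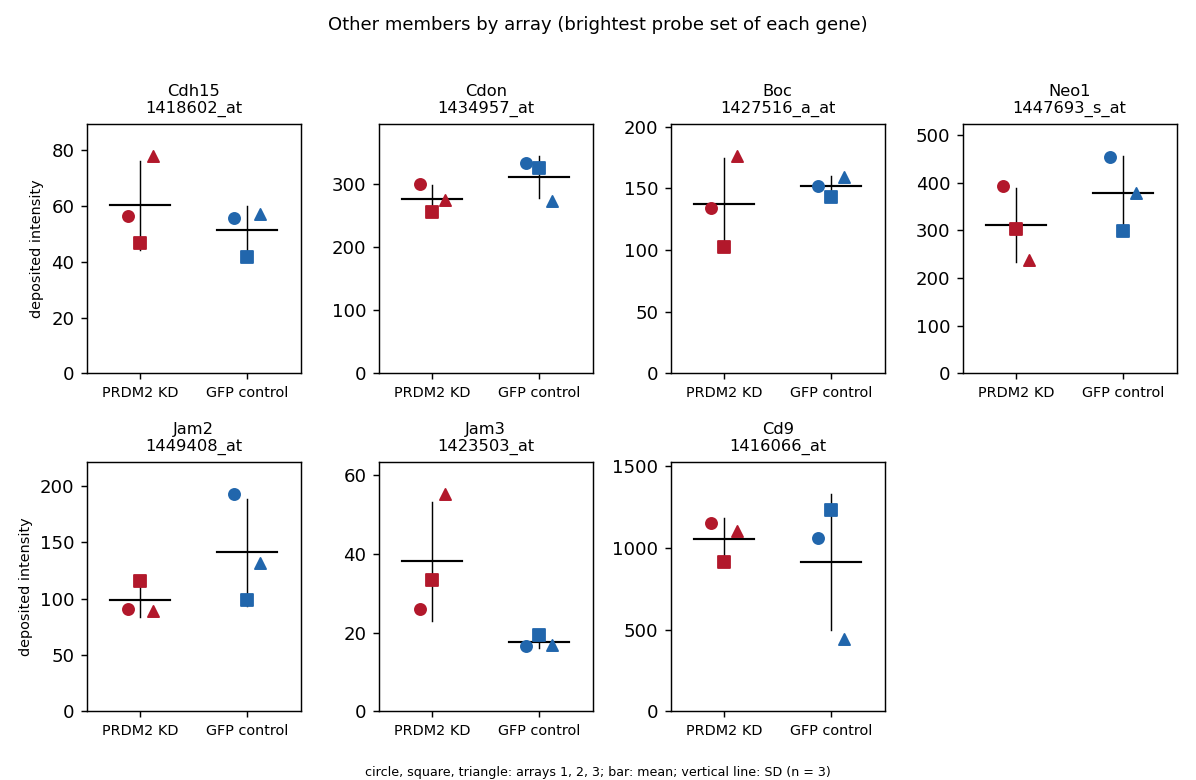
Deposited intensity on linear axes from 0, for the brightest probe set of Cdh15, Cdon, Boc, Neo1, Jam2, Jam3 and Cd9, with the 3 PRDM2 KD arrays left and the 3 GFP control arrays right in each panel. Horizontal bars are means and vertical lines SD (n = 3). The groups overlap in every panel except Jam3, at 26.1 to 55.1 against 16.7 to 19.5, and control array 3 of Cd9 stands apart at 443.

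The knockdown itself and the state of the cells were read from the same arrays. Prdm2 was lower at 2 of 3 probe sets without passing, with log2 differences of -0.51 and -0.75 (limma adjusted p of 0.441 and 0.475), and 0.10 at the dim remaining one. All 6 markers of differentiated muscle rose, with a median log2 difference of 4.04, and their summed intensity was 6028 to 7308 in the knockdown and 138 to 329 in the control. Of 6 myoblast markers, Vcam1 rose and Myf5 fell (limma adjusted p = 0.0228, and 0.0463 to 0.0923 without single arrays), and Myod1 and Des were well above background in both groups without passing. Of 6 macrophage and 6 endothelial markers 0 passed in either direction by limma, with 0 higher and 1 lower at an unadjusted p under 0.05. Over all 18193 genes, each by its brightest probe set, 1618 were higher and 1322 lower at that cut. The defining Ptprc, Itgam, Pecam1 and Cdh5 were under 16 on every array. Adgre1, Csf1r and Emcn were above 16 on all 6 arrays without passing, with means of 25.6, 61.9 and 43.7 in the knockdown and 33.0, 113 and 56.1 in the control. The summed macrophage markers read 85.2 to 134 in the knockdown and 133 to 258 in the control, and the endothelial ones 47.2 to 75.9 and 45.7 to 93.8. Of 6 fibroblast markers, Col1a1 rose, with means of 76.7 in the knockdown and 7.14 in the control (limma adjusted p = 0.0281, and 0.00789 to 0.129 without single arrays), while Thy1, Lum and Tcf21 were under 16 on every array. Pdgfra and Dcn were well above background in both groups without passing, with means of 381 and 178 in the knockdown and 231 and 103 in the control, and log2 differences of 0.71 and 0.55 (limma adjusted p of 0.395 and 0.675). Among 5 adipocyte markers 0 passed by limma and 1 was higher at an unadjusted p under 0.05, and among 5 neural markers Tubb3 fell (limma adjusted p = 0.0324, and 0.0348 to 0.129 without single arrays). Summed intensities were 609 to 713 in the knockdown and 209 to 516 in the control for the fibroblast markers, 124 to 324 and 33.0 to 56.8 for the adipocyte ones, mostly from Retn, and 37.3 to 47.0 and 65.8 to 86.2 for the neural ones. The part of any of these lists in the changes of the fusion genes was not tested. In these bulk samples a larger share of differentiating cells and more RNA per cell cannot be told apart.

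The closest followers of Mymk over the 6 arrays were sought among 19449 probe sets of other single genes with above-median mean intensity. They were Unc45b, Abca8a, Frmpd1, Ptgfr and Emb, with Pearson r of 0.997 to 0.999. These are descriptions over 6 arrays in 2 groups, so any gene with a steady difference scores high. Emb encodes embigin, an immunoglobulin superfamily protein of the cell surface, and Unc45b a chaperone of muscle myosin. Emb averaged 566 ± 15.6 in the knockdown and 170 ± 27.3 in the control (SD, n = 3 each). Among the 10 genes, r with Mymk was 0.96 for Mymx and 0.89 and 0.96 for the Cdh2 probe sets, 0.86 for the brighter Jam3 probe set and -0.96 for the brighter Cdon probe set, neither of which passed.

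Other genes of fusion and adhesion were taken from 7 lists, each gene represented by its probe set of highest mean intensity. Over all 18193 genes so represented, 3.92% passed, 2.29% higher and 1.64% lower, with a median of -0.00. At an unadjusted p under 0.05, 1618 of them were higher and 1322 lower. The list medians lay between -0.03 and 0.05, so that the movements below are those of single genes.

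Of 23 measured receptors and membrane partners of fusion, 5 rose and 1 fell, and 3 to 5 rose when single arrays were left out. Vcam1, an adhesion molecule that binds the integrin of Itga4, read 429, 385 and 481 on the knockdown arrays, against 57.4, 91.4 and 54.9 on the control arrays. Its groups were far apart, with a log2 difference of 2.36 (SE 0.157, limma adjusted p = 0.00158). Itga4 itself rose by 1.00 at its brightest probe set, while its next brightest differed by -0.42, and neither that one nor the dimmer others passed. Adam12, a metalloprotease-disintegrin of fusing myoblasts, rose by 2.17 (limma adjusted p = 0.00114), while its dimmer probe set differed by 0.60 without passing. Cd36, a fatty acid and thrombospondin receptor, rose by 1.83, and its dimmest probe set differed by 0.52 without passing.

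The remaining calls of that list were less firm. Ptger4, a prostaglandin E2 receptor, rose by 1.09 (limma adjusted p = 0.0276, and 0.0387 to 0.127 when single arrays were left out). Cd44, the hyaluronan receptor, fell by 0.67 (limma adjusted p = 0.0337, and 0.0641 to 0.152 without single arrays). Its dimmer probe sets differed by -0.60, -0.90 and 0.02 without passing. The call of Itga4 was lost without knockdown array 1 or 3, with a highest limma adjusted p of 0.0598. Cd81, Ptgfrn and Igsf8, which form complexes with Cd9, differed by -0.16, 0.34 and 0.65 without passing, and Kirrel, a homologue of fly fusion receptors, by 0.13.

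Of 24 other cadherins and catenins, 1 rose and 1 fell. Cdh11 encodes the mesenchymal OB-cadherin, and it read 448, 507 and 441 on the knockdown arrays, against 17.0, 33.0 and 7.63 on the control arrays. The groups were more than an order of magnitude apart, and on the log2 scale they differed by 3.83 (SE 0.232, limma adjusted p = 0.00117). Its other probe set rose by 2.90. The catenins Ctnnb1 and Ctnna1, which tie cadherins to actin, differed by 0.13 and 0.02 without passing. Arvcf fell by 0.75 at its brightest probe set (limma adjusted p = 0.0388, and 0.0563 to 0.164 without single arrays). Its dimmer probe sets differed by -0.07 and 0.06 without passing. Cdh1, Cdh3 and Cdh5 were under 16 on every array.

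Among 29 ligands and partners of Cdon, Boc and neogenin, 4 rose and 0 fell by limma, with 6 higher and 1 lower at an unadjusted p under 0.05. Hjv (hemojuvelin), a neogenin ligand of the repulsive guidance family made in muscle, read 71.4, 64.3 and 59.1 on the knockdown arrays, against 3.61, 2.11 and 5.39 on the control arrays. Its signal was near the floor on the control arrays and clear on the knockdown arrays, with a shift of 2.00 on the log2 scale (SE 0.0997, limma adjusted p = 0.000933). The netrin receptor Unc5c rose by 1.62, the Hedgehog pathway factor Gli2 by 1.40 and the netrin family gene Ntn5 by 0.87. The dimmer Gli2 probe set differed by 0.44 without passing. Ntn5 had a limma adjusted p of 0.0608 without knockdown array 1. Ptch1, a Hedgehog receptor and target, differed by 0.05 without passing.

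In the JAM family and its polarity partners, 1 of 15 measured genes rose and 1 fell. Igsf5, also known as JAM4, read 5.98, 6.92 and 3.20 on the knockdown arrays, against 280, 276 and 196 on the control arrays. Its signal was near the floor on every knockdown array, and on the log2 scale it differed by -3.68 (SE 0.11, limma adjusted p = 0.000311). Tjp1, the junction scaffold ZO-1, rose by 0.76 (limma adjusted p = 0.0173, and 0.0288 to 0.0917 without single arrays).

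Few genes of the other 3 lists passed. Cav3, the muscle caveolin, read 60.0, 76.9 and 65.2 on the knockdown arrays, against 2.40, 0.978 and 1.72 on the control arrays, and rose by 2.20 (SE 0.106, limma adjusted p = 0.000813). Cav1, the caveolin of most other cells, fell by 1.18 (limma adjusted p = 0.0204, and 0.0326 to 0.0964 without single arrays). Cav3 and Cav1 were the only passing genes of the 12 measured in the list of ferlins, EHD proteins and annexins, and the ferlin Dysf differed by 0.69 (limma adjusted p = 0.0737). Of 29 regulators of actin, 0 rose by limma at the brightest probe set, and 5 were higher and 3 lower at an unadjusted p under 0.05. Over all 86 probe sets of these genes, 1 rose and 2 fell by limma. The formin Diaph1 fell by 0.83 at its brightest probe set (limma adjusted p = 0.0244, and 0.052 to 0.0971 without single arrays). Its dimmer probe sets differed by -0.32 and -0.07 without passing. Of 22 other tetraspanins, 0 rose by limma, and 4 were higher and 2 lower at an unadjusted p under 0.05. Tspan9 fell by 1.10 (limma adjusted p = 0.0216, and 0.0516 to 0.0999 without single arrays), and its dimmer probe set differed by -0.16 without passing.

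**Figure D4:**
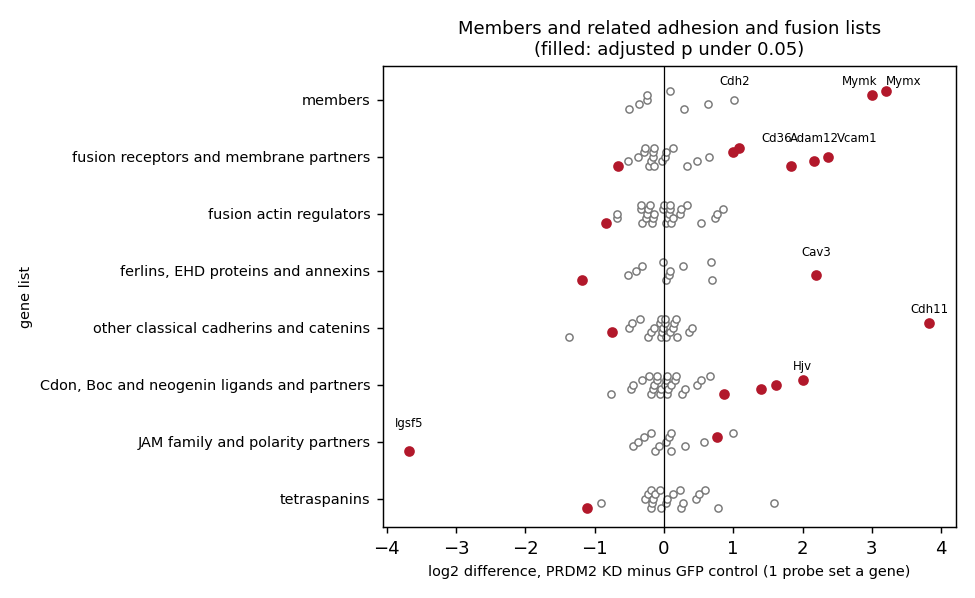
Each point is a gene, represented by its probe set of highest mean intensity, and the x axis is the log2 difference, PRDM2 KD minus GFP control. Filled points passed at an adjusted p under 0.05. Most genes of every list lie near 0, while Cdh11 at 3.83, Mymx at 3.20 and Mymk at 3.00 lie far to the right and Igsf5 at -3.68 far to the left.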

How the data were processed

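The deposited table holds linear intensities, 1 for each probe set on each of 6 Affymetrix mouse arrays of total RNA. GCOS and PLIER are named, without versions, per the submitters' processing notes; background correction and scaling between arrays are not given in the sources used here. Per the labels' protocols, RNA was extracted with Trizol and biotinylated cRNA was made from 8 µg of it. Intensities were quantile normalized, transformed as log2(intensity + 16) and compared in R 4.3.3 with limma 3.58.1 (lmFit, eBayes), after 64 control probe sets were left out, with Benjamini-Hochberg adjustment over 45037 probe sets. Symbols came from the platform annotation, with 34945 probe sets carrying 1 symbol, 932 several and 9160 none. All member identifiers matched the GRCm38.p6 gene table. The arrays name no build, so no coordinates are given for probe sets, and those of the Cdh15 window are its sequence table's. Changes of related pairs were compared within arrays by exact permutation. The test was tried on simulated data. Members, lists, tests and alternatives were chosen with earlier results of these data known. Named genes are all members, Prdm2, 5 muscle markers, up to 4 passing genes of each list in each direction and the 5 genes most like Mymk; Itga4 and genes named without passing were chosen after their values were seen. Median intensity was 10.6 to 12.1, 55.1% to 58.2% of values per array lay under 16, no arrays were identical, and the Dap poly-A spike read 38.8 and 39.9 on array 3 of each group against 126 to 254 on the others. Control array 3 had the lowest 5' to 3' ratios, at 0.0992 for Gapdh and 0.114 for Actb. The other arrays had 0.704 to 1.14 and 0.299 to 0.723. That array is part of every main comparison. The number of arrays limits precision.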

Additional observations from a re-analysis of the deposited data

How the results depend on the processing

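Mymk passed under all 21 alternatives (limma adjusted p of 5.38e-05 to 0.043, log2 difference 1.62 with an offset of 64 to 4.89 with an offset of 1), and Mymx under 20 of 21. The 3 probe sets higher in the knockdown became 1 with ordinary statistics, and the 2 genes 1; leaving out single arrays gave 2 to 3 probe sets and 2 genes, and no alternative gave a member that was lower. With the filter on low values, the spike groups as a block or array weights, 4 probe sets and 3 genes were higher. With 1 probe set a gene, the mean of a gene's probe sets or the replicate block, 3 genes were. The filter kept probe sets that reached 16 on at least 3 arrays. Mymk and Mymx met it only through the 3 knockdown arrays, so their calls under it are no separate support. With ordinary statistics 112 probe sets of the whole array were higher and 51 lower, in the 4 arrays of higher spike signal 120 and 63, with array weights 1120 and 861, and without single arrays 244 to 507 and 141 to 398. With the replicate number as a replicate block they were 347 and 242, and the limma adjusted p of Cdh2 was 0.0515 at 1449244_at and 0.0363 at 1418815_at. Same-numbered arrays deviated together with r of 0.39, 0.08 and 0.01, so the numbers were not taken as pairs. In 26 values of the 23 probe sets, in differences that passed in neither setting, the sign turned, as it did under some settings for Kirrel, Itgb1, Ptch1, Ctnna1 and a Des probe set; no called value turned. Over the alternatives, 1 to 5 fusion receptors, 3 to 5 Cdon, Boc and neogenin partners and 3 to 6 muscle markers rose. Dim probe sets, such as those under 16, limit what can be detected.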
